A study of Homo sapiens with 33 samples.

Results

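The NF-kB transcription factor subunits and the proteins that hold them back were followed in Karpas422, a human cell line from a diffuse large B cell lymphoma, during inhibition of the Polycomb complex PRC2. The members are 10 genes chosen by name: the subunit genes NFKB1, NFKB2, REL, RELA and RELB, the inhibitor genes NFKBIA, NFKBIE and NFKBIZ, the ubiquitin-editing enzyme gene TNFAIP3, and BCL3. Of these, 9 genes had at least 1 probe set annotated to that gene alone, 19 of the 54613 probe sets tested. Both probe sets of BCL3 are annotated to a microRNA gene as well, so BCL3 has no value here. By gene, these are 9 of the 19775 genes represented by their brightest probe set.

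NF-kB proteins act as pairs of subunits. In resting cells the pairs are kept in the cytoplasm by IkB proteins, and signals from antigen, cytokine and Toll-like receptors lead the IKK kinase to mark IkB for destruction, so that the pairs enter the nucleus. Several genes that NF-kB switches on, among them NFKBIA and TNFAIP3, encode brakes on the same signal, and B cells and many B cell lymphomas depend on this pathway. A second, non-canonical arm runs through the kinase NIK (MAP3K14) to RELB and the product of NFKB2.

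The series holds 33 Affymetrix arrays in 11 groups of 3. Cells were given 5 µM EED226, an allosteric inhibitor that binds the EED subunit of PRC2, for 8 h or 1, 2, 3 or 6 days, or the solvent DMSO for the same times, and 1 group was taken at 0 h. All groups are the same lymphoma line, which the series title calls EZH2 mutant, grown in the same medium, and the labels do not say how the 0 h cells were treated. The series' design text calls the replicates biological triplicates but also speaks of an EZH2 inhibitor, whereas the titles of the treated samples name EED226. Values are the authors' log2 RMA expression values per probe set, so a difference of 1 is a 2-fold change.

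Arrays of a group agreed closely, with correlations across probe sets of 0.994 or more, except DMSO day 6 replicate 3, at 0.986. The 3' minus 5' signal of the ACTB control probe sets, which grows as RNA is degraded or incompletely copied, was 3.50 to 4.14 log2 units on the EED226 day 6 arrays, against 2.87 to 3.29 on the DMSO day 6 arrays. The GAPDH control probe sets gave 0.52 to 0.74 on the EED226 day 6 arrays, against 0.24 to 0.29 on the DMSO day 6 arrays. The members' values without the array that stands apart, and with the ACTB control difference in the fit, are given after the members. Of the 7 B cell marker genes measured, none lay below the lowest array median, 4.06, on all arrays. CD72, however, ranged from 2.88 to 7.32, and its DMSO day 6 mean of 3.70 was below that level, against 7.20 in EED226 cells. MS4A1, the gene for CD20, lay at 11.94 to 13.11, and PAX5 at 11.21 to 11.77. Of 8 T and NK cell markers, 4 lay below that level on all arrays, but CD3G, at 9.70 to 10.89, and CD3D, at 7.69 to 9.43, were well above it. In bulk RNA, fewer cells expressing a gene and less RNA per cell cannot be told apart.

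The promoters of 5 members that rose are shown first, because the data concern genes that NF-kB is known to bind. They are RefSeq sequences of GRCh38.p14 from upstream of an annotated start, read 5' to 3' on the gene's strand. Capitals mark letters that match GGGNNTTNCC or its reverse complement, a common form of the NF-kB binding motif, searched on both strands.
NFKBIZ, chr3:101827740-101827989, + strand: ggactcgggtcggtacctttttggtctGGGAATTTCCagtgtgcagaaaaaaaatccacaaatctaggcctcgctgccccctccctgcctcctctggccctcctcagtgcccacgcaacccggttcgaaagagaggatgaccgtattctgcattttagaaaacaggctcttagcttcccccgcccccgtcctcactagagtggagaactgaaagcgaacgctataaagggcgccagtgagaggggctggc
NFKBIA, chr14:35404750-35404849, - strand: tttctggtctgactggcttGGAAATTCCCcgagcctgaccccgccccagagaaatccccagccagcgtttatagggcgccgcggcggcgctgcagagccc
TNFAIP3, chr6:137867159-137867258, + strand: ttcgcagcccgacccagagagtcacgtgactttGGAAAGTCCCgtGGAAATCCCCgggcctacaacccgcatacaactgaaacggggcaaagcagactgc
REL, chr2:60881474-60881573, + strand: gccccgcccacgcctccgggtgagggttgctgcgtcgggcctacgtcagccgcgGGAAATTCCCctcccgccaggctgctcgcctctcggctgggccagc
NFKB1, chr4:102501259-102501358, + strand: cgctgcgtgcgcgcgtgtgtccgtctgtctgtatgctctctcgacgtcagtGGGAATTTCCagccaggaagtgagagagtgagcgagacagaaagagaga
The NFKBIZ match shown lies 223 to 214 bases before its start, and the NFKBIA match 81 to 72 bases before its own. Another NFKBIZ window, not shown, has a match 239 to 230 bases before its start, and another NFKB1 window has none. TNFAIP3 has 2 matches, 67 to 58 and 55 to 46 bases before its start. In the 250 bases before a start, 5.07% of 35116 RefSeq windows and 6.14% of 27305 genes in at least 1 window held this motif. Of the 7 members with such windows, 6 held it in at least 1 window, and RELA did not. By window, it was in 8 of their 12. NFKB2, whose probe sets did not rise, holds it as well, in 2 of its windows, among them GGGAATTCCC, which matches on both strands. A match is a description of these letters and not a bound site.

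Most calls among the members came at day 6. At 8 h and at day 1, limma called none of the 9 genes in EED226 cells against DMSO cells, where 0 and 0.506% of all genes were called in either direction, and 369 and 1312 genes had an unadjusted p under 0.05. At day 2, only NFKBIZ was higher, where 5.72% of all genes were higher. At day 3, NFKBIZ and NFKB1 were higher, where 10.6% of all genes were. At day 6, 8 of the 9 were higher and none lower, where 23.1% of all genes were higher and 25.5% lower. The 3 values of each treatment did not overlap for 0, 2, 3, 6 and 8 members from 8 h to day 6, where this held for 6.03%, 13.6%, 30.2%, 36.8% and 51.7% of all genes. Those counts take either direction. RELB was among them as lower at day 2, at -0.30, and NFKBIA as lower at day 3, at -0.23, neither of them called. The median member difference was 0.02, 0.01, 0.08 and 0.22 log2 units from 8 h to day 3, and 1.08 at day 6, while the median of all genes was -0.00, -0.01, -0.03, -0.02 and -0.11.

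**Figure D1:**
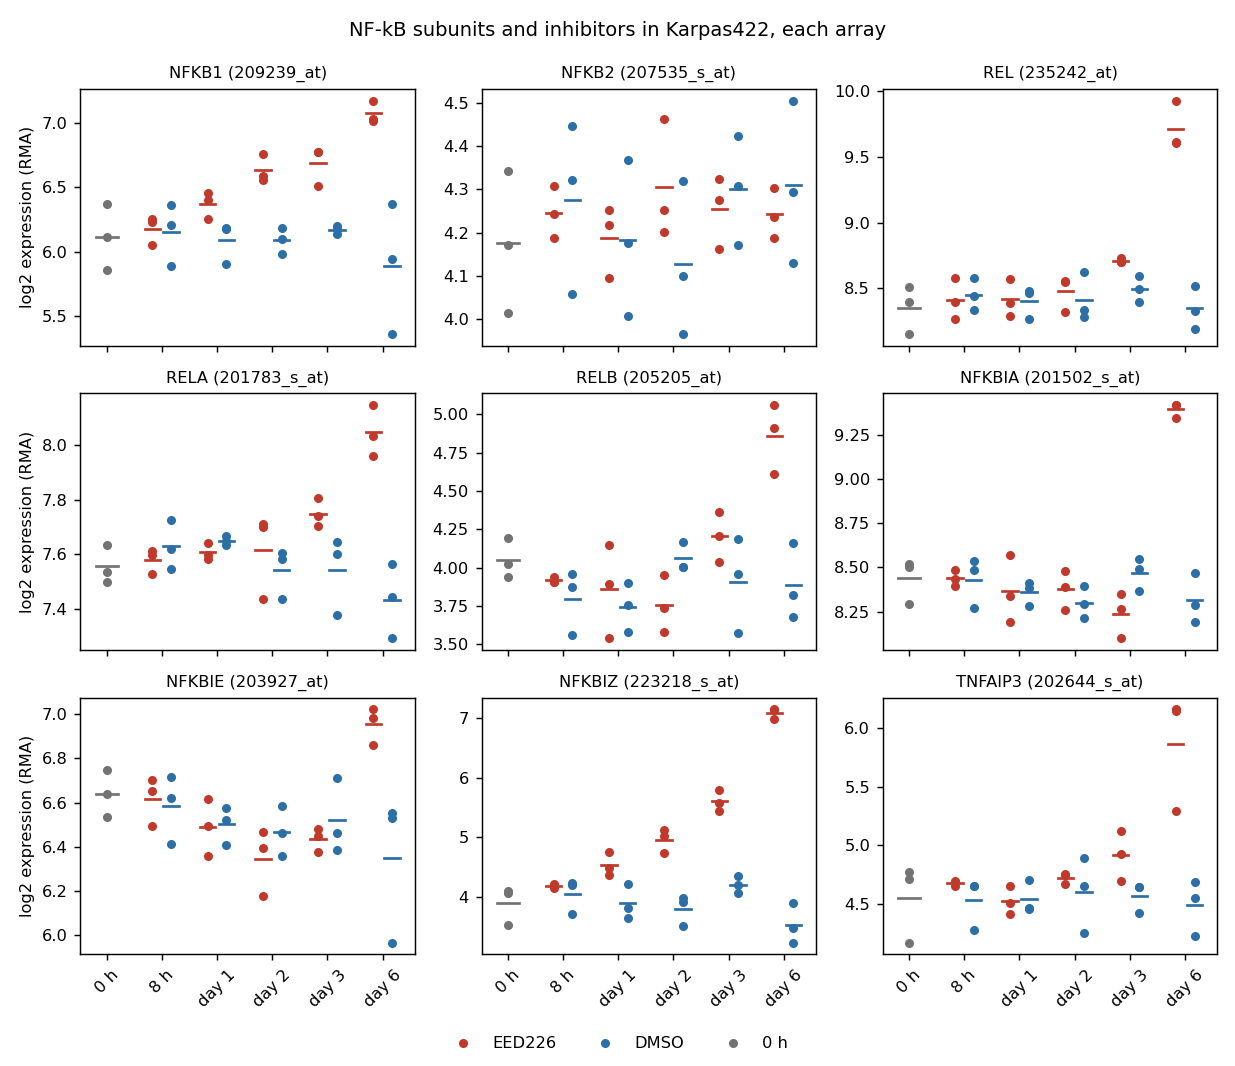
Log2 expression level (y axis) of the brightest probe set of each of the 9 genes on every array, by time of treatment, with EED226, DMSO and 0 h arrays in separate colours. NFKBIZ lies at 6.97 to 7.14 on the 3 EED226 day 6 arrays, against 3.23 to 3.89 on the DMSO day 6 arrays, and NFKB2 overlaps between treatments at day 6.

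**Figure D2:**
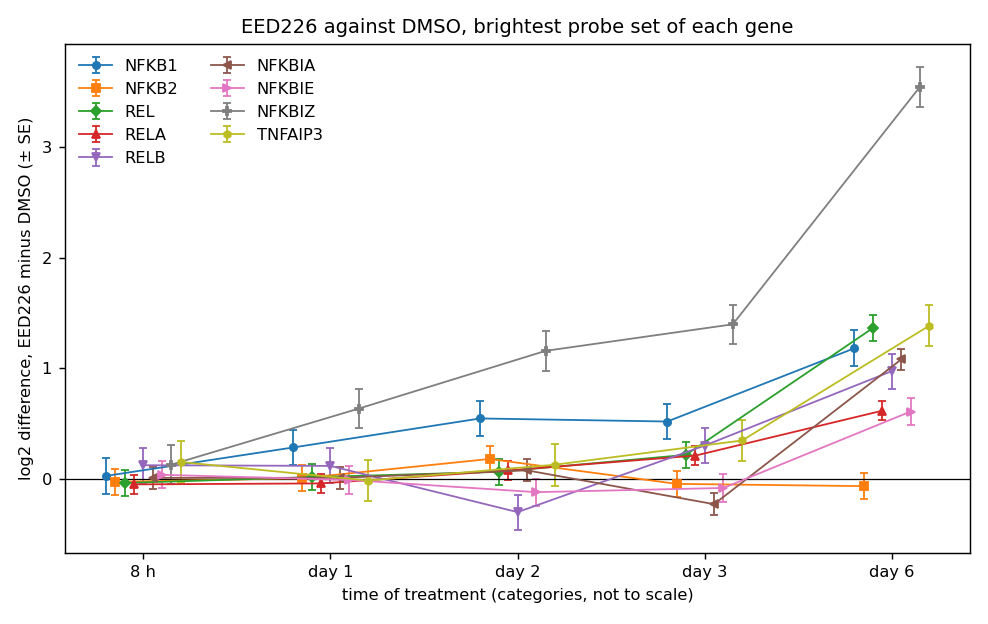
Log2 difference, EED226 minus DMSO, with its SE (y axis), against time of treatment for the brightest probe set of each gene. NFKBIZ passed the test from day 2 and NFKB1 from day 3, and the other 6 genes that passed did so at day 6.

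NFKBIZ, a nuclear IkB protein that works with NF-kB on a set of secondary target genes, had the earliest call and the largest difference of the 9 genes. At day 1, where it was not called, it lay at 4.75, 4.48 and 4.36 on the EED226 arrays, against 4.22, 3.82 and 3.65 on the DMSO arrays. At day 2 its brightest probe set, 223218_s_at, lay at 5.12, 5.02 and 4.73 on the EED226 arrays, against 3.51, 3.91 and 3.98 on the DMSO arrays, a 2.23-fold difference (limma adjusted p = 7.49e-05). At day 3 it lay at 5.80, 5.57 and 5.44 on the EED226 arrays, against 4.06, 4.19 and 4.36 on the DMSO arrays, a 2.63-fold difference (limma adjusted p = 1.41e-06). At day 6 it lay at 6.97, 7.14 and 7.13 on the EED226 arrays, against 3.48, 3.89 and 3.23 on the DMSO arrays. The groups did not overlap at any of these times. The day 6 difference was 3.55 ± 0.18 log2 units (SE), 11.7-fold (limma adjusted p = 2.15e-15). DMSO levels at day 6 averaged 3.54, below the median of the arrays, so the fold is measured against a dim signal. The second probe set, 223217_s_at, gave 1.22 ± 0.20 at day 6, 2.33-fold (limma adjusted p = 9.40e-06), with means of 5.26 ± 0.49 in EED226 cells and 4.04 ± 0.04 in DMSO cells (SD, n = 3). Both probe sets rose, but their sizes differ.

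REL, the subunit most tied to B and T cell activation, was measured by 5 probe sets, and all 5 were higher at day 6. The brightest, 235242_at, lay at 9.61, 9.93 and 9.60 on the EED226 day 6 arrays, against 8.33, 8.52 and 8.19 on the DMSO day 6 arrays, a difference of 1.36 ± 0.12, or 2.58-fold (limma adjusted p = 1.22e-10). All 3 EED226 day 6 arrays lay above every DMSO and 0 h array, of which the highest was 8.62. Of the other 4 probe sets, 228812_at gave the largest difference, 2.95-fold. The dimmer 239486_at gave 0.81 (limma adjusted p = 0.0282), and this call was lost in 6 of its alternatives.

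RELA, the subunit of the classical pair with NFKB1, rose less. Its brightest probe set, 201783_s_at, lay at 8.03, 8.15 and 7.96 on the EED226 day 6 arrays, against 7.44, 7.56 and 7.29 on the DMSO day 6 arrays. The groups did not overlap, and the difference was 0.62 ± 0.09, or 1.53-fold (limma adjusted p = 9.48e-07). The second probe set, 209878_s_at, did not show it: its difference was 0.10 ± 0.10, with an interval of -0.10 to 0.30 (limma adjusted p = 0.434). The probe sets of RELA disagree.

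NFKB1, which gives the p105 precursor and the p50 subunit, lay at 7.03, 7.02 and 7.17 on the EED226 day 6 arrays, against 6.37, 5.95 and 5.36 on the DMSO day 6 arrays, by probe set 209239_at. The difference was 1.18 ± 0.16, or 2.27-fold (limma adjusted p = 7.13e-07). The lowest DMSO value belongs to the array that stands apart, and without it the difference was 0.92. At day 3 NFKB1 lay at 6.77, 6.78 and 6.51 on the EED226 arrays, against 6.20, 6.14 and 6.18 on the DMSO arrays, a difference of 0.52 (limma adjusted p = 0.0292), and this call was lost when any of 5 of the 6 arrays compared was left out. At day 2 it lay at 6.76, 6.59 and 6.56 on the EED226 arrays and 6.19, 6.10 and 5.99 on the DMSO arrays. The difference was 0.54 ± 0.16 (limma adjusted p = 0.0508), and with the replicate number as a block NFKB1 passed as well, giving 2 members instead of 1. At day 1 the NFKB1 difference was 0.28 ± 0.16, with an interval of -0.05 to 0.61, and was not called. At day 1, day 2 and day 3 the groups did not overlap.

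RELB, the subunit of the non-canonical pair, lay at 4.91, 4.61 and 5.06 on the EED226 day 6 arrays, against 3.68, 3.82 and 4.16 on the DMSO day 6 arrays, by probe set 205205_at. The difference was 0.97 ± 0.16, or 1.96-fold (limma adjusted p = 1.03e-05), and the groups did not overlap. Its DMSO mean was below the lowest array median, 4.06.

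NFKB2, which gives p100 and p52, was the member that did not rise. Its brightest probe set, 207535_s_at, lay at 4.19, 4.24 and 4.30 on the EED226 day 6 arrays and 4.29, 4.13 and 4.50 on the DMSO day 6 arrays, which overlap. The difference was -0.07 ± 0.12, with an interval of -0.31 to 0.17 (limma adjusted p = 0.674). The dimmer 209636_at was lower by 0.52 ± 0.12 log2 units (limma adjusted p = 0.000532), at 3.38, 3.33 and 3.41 on the EED226 arrays against 4.01, 3.81 and 3.86 on the DMSO arrays. The third, 211524_at, gave -0.09 ± 0.14.

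NFKBIA, the classical IkB alpha, lay at 9.35, 9.42 and 9.42 on the EED226 day 6 arrays, against 8.47, 8.29 and 8.19 on the DMSO day 6 arrays, by 201502_s_at. The groups did not overlap, and the difference was 1.08 ± 0.10, or 2.11-fold (limma adjusted p = 3.96e-10). At day 3 it was at 8.26, 8.35 and 8.10 on the EED226 arrays and 8.55, 8.36 and 8.49 on the DMSO arrays, a difference of -0.23 with an interval of -0.43 to -0.03 (limma adjusted p = 0.134). The second NFKBIA probe set, 231699_at, is dim and gave -0.19 ± 0.11 at day 6 (limma adjusted p = 0.164). With the ACTB control difference in the fit it was called lower, at -0.38 (limma adjusted p = 0.0392), opposite to the brightest probe set.

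NFKBIE, the IkB epsilon that holds REL-containing pairs, lay at 7.02, 6.99 and 6.86 on the EED226 day 6 arrays, against 6.55, 6.53 and 5.97 on the DMSO day 6 arrays, by 203927_at. The difference was 0.61 ± 0.12, or 1.52-fold (limma adjusted p = 0.000187), and 0.42 without the DMSO array that stands apart, which held the lowest value. Over all alternatives, the lowest NFKBIE difference was 0.32 and the highest limma adjusted p was 0.0357. TNFAIP3, the A20 enzyme that shuts off signalling upstream of IKK, lay at 6.16, 6.15 and 5.30 on the EED226 day 6 arrays, against 4.55, 4.68 and 4.22 on the DMSO day 6 arrays, by 202644_s_at. The difference was 1.38 ± 0.19, or 2.61-fold (limma adjusted p = 5.93e-07). Neither NFKBIE nor TNFAIP3 overlapped between the treatments at day 6. The second TNFAIP3 probe set, 202643_s_at, gave 0.80 ± 0.15, or 1.74-fold (limma adjusted p = 4.79e-05).

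Of the 19 probe sets at day 6, 14 were higher, 1 was lower and 4 did not pass, where 20.2% of all probe sets were higher and 20.6% lower. In 12 of the 19, all 3 EED226 day 6 arrays lay above all 18 DMSO and 0 h arrays, where this held for 14.9% of all probe sets. Among the brightest probe sets, it held for 8 of 9, and for 18.8% of all genes. The counts by brightest probe set may favour probe sets that rose, because the mean used to rank them includes the EED226 arrays, and among the other 10 probe sets 6 were higher and 1 lower.

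**Figure D3:**
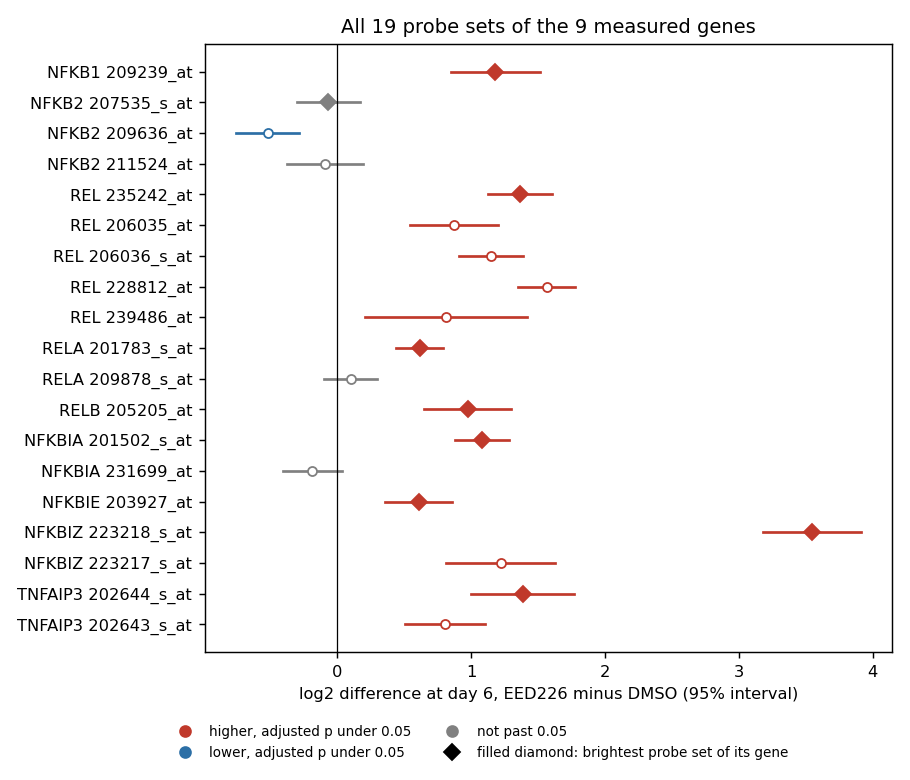
Log2 difference at day 6, EED226 minus DMSO, with its 95% interval (x axis), for each of the 19 probe sets. Filled diamonds are the brightest probe set of each gene. 14 probe sets lie above 0 and pass the test, the 2 probe sets of NFKBIZ differ at 3.55 and 1.22, and 209636_at of NFKB2 lies below 0.

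For the 8 members that rose, the largest share of the day 6 difference present at day 3 was 43.8%, for NFKB1. That share depends on the DMSO array that stands apart. The NFKB1 difference was 0.52 at day 3 and 1.18 at day 6, but 0.92 at day 6 without that array, which makes the share larger. NFKBIZ had reached 39.4% of its day 6 difference at day 3, RELA 33.9%, RELB 30.7%, TNFAIP3 24.9% and REL 15.8%, while NFKBIA and NFKBIE were at -21.4% and -13.9%. The difference between the 2 contrasts was tested directly, and 8 members had a larger difference at day 6 than at day 3, where 12.9% of all genes had. NFKBIZ gained 2.15 ± 0.25 log2 units (limma adjusted p = 5.44e-07), NFKBIA 1.31 ± 0.14 (limma adjusted p = 1.27e-07) and REL 1.15 ± 0.17 (limma adjusted p = 1.14e-05). When only the arrays compared entered the fit, 4 members passed, and the NFKB1 call was lost in 14 of its 22 alternatives. Without DMSO day 6 replicate 3 the NFKB1 gain was 0.40 (limma adjusted p = 0.184). From day 1 to day 3, no member passed, where 5.78% of all genes did. NFKBIZ came nearest, at 0.76 ± 0.25 (limma adjusted p = 0.0967).

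In DMSO alone, no member passed the test for DMSO against 0 h at 8 h or at day 1, 2, 3 or 6, where 0, 0.121%, 0.556%, 2.17% and 1.11% of genes passed in either direction. The lowest adjusted p of the 19 probe sets was 0.319, for NFKBIE at day 6, at -0.29 ± 0.12 log2 units. These comparisons share the 0 h arrays.

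With the ACTB 3' minus 5' difference as a covariate, 8 of the 9 members still passed at day 6, with differences of 1.59 for NFKB1, 1.15 for REL, 0.66 for RELA, 1.01 for RELB, 1.31 for NFKBIA, 0.80 for NFKBIE, 3.82 for NFKBIZ and 1.69 for TNFAIP3. The fit holds 1 mean per group, so the slope of this covariate came from the spread within groups. The ACTB difference did not overlap between the treatments at day 6, and the part of RNA quality was not tested. Without DMSO day 6 replicate 3 the same 8 passed, with NFKBIZ at 3.40 and REL at 1.29.

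Around the core, genes of the upstream machinery were called in both directions, more often higher. Of 16 measured genes of the IKK complex and its canonical adaptors, 10 were higher and 2 lower at day 6, where 23.1% of all genes were higher and 25.5% lower. The list median was 0.40 log2 units, against -0.11 for all genes. MYD88, the adaptor of most Toll-like receptors, averaged 12.54 ± 0.07 in EED226 cells and 11.02 ± 0.08 in DMSO cells (SD), a difference of 1.53 ± 0.07. TAB2, which brings the TAK1 kinase to the complex, differed by 1.19 ± 0.09, and TRADD, the TNF receptor adaptor, by 1.27 ± 0.11, with 1 of 2 other TRADD probe sets of opposite sign. IKBKB, the IKK beta kinase, was higher by 1.23 ± 0.12, and CHUK, the IKK alpha kinase, was lower by 0.31 log2 units. CHUK and IKBKB were named after their values were seen. The CHUK call was lost with only the arrays compared (limma adjusted p = 0.0899) and without EED226 day 6 replicate 2 (limma adjusted p = 0.0930). Over all alternatives the lowest IKBKB difference was 0.57, and its call was kept.

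In the non-canonical arm, all 3 measured genes were higher at day 6, beside 23.1% of all genes. MAP3K14, the NIK kinase, averaged 6.96 ± 0.17 in EED226 cells and 5.66 ± 0.53 in DMSO cells, a difference of 1.31 ± 0.15. BIRC2, a ubiquitin ligase that keeps NIK low, differed by 0.87 ± 0.07. TRAF3, another such regulator, differed by 0.40 ± 0.08, but a second TRAF3 probe set pointed the opposite way. Without DMSO day 6 replicate 3 the differences were 1.00 for MAP3K14, 0.89 for BIRC2 and 0.36 for TRAF3.

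Of 14 other IkB proteins and signal terminators, 6 were higher and 2 lower at day 6, with a median of 0.19, beside 23.1% and 25.5% of all genes. CYLD, a deubiquitinase that limits NF-kB signalling, averaged 9.51 ± 0.06 in EED226 cells and 7.15 ± 0.28 in DMSO cells, a difference of 2.36 ± 0.10, or 5.12-fold. It was already higher by 0.64 ± 0.10 at day 2 and by 1.23 ± 0.10 at day 3. RNF11 and TAX1BP1, partners of A20, differed by 1.33 ± 0.12 and 0.89 ± 0.08. NFKBIB, the IkB beta gene, was lower by 0.64 ± 0.11 log2 units, and NFKBID, a nuclear IkB, was higher by 0.75 ± 0.15; both were named after their values were seen. The NFKBID call was lost when its probe sets were averaged, at 0.17 (limma adjusted p = 0.0984), and 1 of its 2 other probe sets had the opposite sign, as had 1 of 6 for CYLD.

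Among 16 receptors, 5 were higher and 1 was lower at day 6, with a median of 0.00, beside 23.1% of all genes higher and 25.5% lower. TLR7, a receptor for single-stranded RNA, averaged 9.82 ± 0.11 in EED226 cells and 5.69 ± 0.71 in DMSO cells, a difference of 4.12 ± 0.25, or 17.4-fold. It was higher by 1.51 ± 0.25 at day 2. CD40, the receptor through which T cells activate B cells, differed by 1.90 ± 0.12, and TLR1 by 1.14 ± 0.16. Without DMSO day 6 replicate 3 the day 6 differences were 3.72 for TLR7, 2.00 for CD40 and 0.85 for TLR1.

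Among 8 measured ligands, 3 were higher and 2 lower at day 6, beside 23.1% and 25.5% of all genes. TNF averaged 6.45 ± 0.34 in EED226 cells and 9.16 ± 0.03 in DMSO cells at day 6, and the related lymphotoxin gene LTA averaged 6.11 ± 0.35 in EED226 cells and 8.93 ± 0.14 in DMSO cells. LTB, the membrane partner of LTA, went the other way at the end: it was lower by 1.22 ± 0.21 log2 units at day 3 and higher by 0.64 ± 0.21 at day 6 (limma adjusted p = 0.0175), and the 2 contrasts differed by 1.86 ± 0.30. The day 6 call for LTB was lost with the ACTB covariate, with the mean of its 2 probe sets, which differ in sign, and without EED226 replicate 3 or DMSO replicate 1. TNFSF13B, the B cell survival factor BAFF, was higher by 1.25 ± 0.25, with overlapping groups.

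The target genes outside the members were called in both directions. Of 35 measured, 6 were higher, 4 lower and 25 did not pass at day 6, with a median of -0.02, beside 23.1% of all genes higher and 25.5% lower. IRF1, a transcription factor of interferon responses, averaged 7.80 ± 0.13 in EED226 cells and 5.07 ± 0.40 in DMSO cells, a difference of 2.73 ± 0.13. BCL2A1, a survival gene of the BCL2 family, differed by 3.32 ± 0.16, and CD83, an activation marker, by 2.23 ± 0.16. CCL4, a chemokine, averaged 9.94 ± 0.29 in EED226 cells and 6.86 ± 0.31 in DMSO cells. PLEK and SOD2, the mitochondrial superoxide dismutase, were each lower by 0.79 log2 units. ICAM1 and IRF4, named after their values were seen, were the other falls, at -0.47 and -0.52, and MARCKS and CXCL10 the other rises. The ICAM1 call was lost in 6 alternatives, with -0.21 without EED226 day 6 replicate 2, and the CXCL10 call in 5. Averaging probe sets gave 0.47 for MARCKS and -0.23 for IRF4, and MARCKS, ICAM1 and IRF4 each had 1 other probe set of opposite sign.

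**Figure D4:**
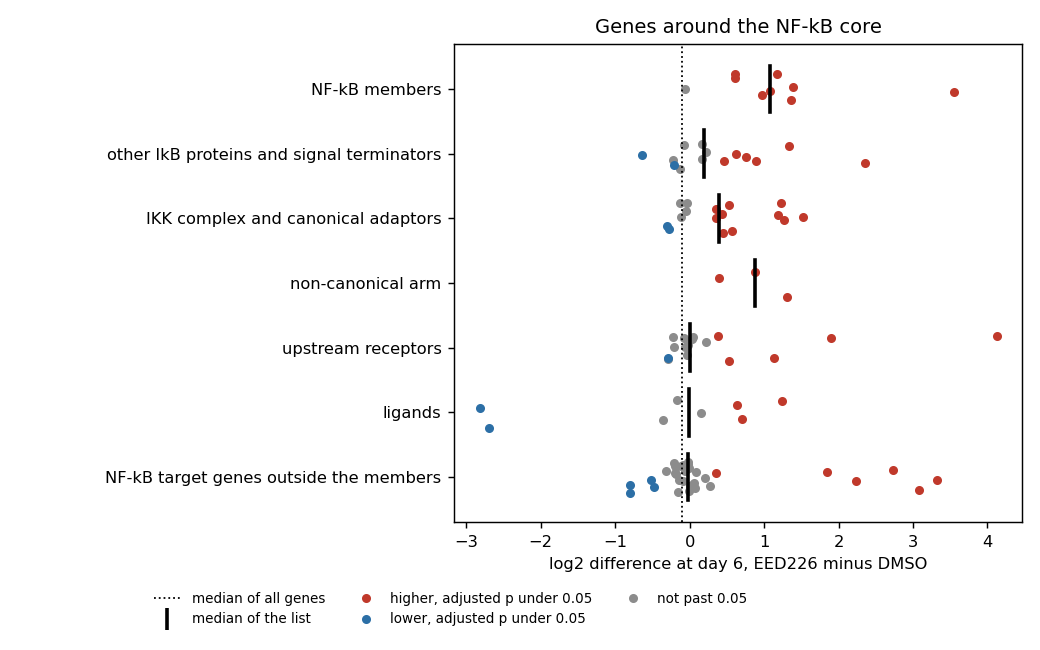
Log2 difference at day 6, EED226 minus DMSO (x axis), for every measured gene of each list, by brightest probe set, with list medians. TLR7 lies at 4.12 among the receptors, and TNF and LTA at -2.70 and -2.82 among the ligands.

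At day 6, 4 of 7 measured B cell markers were higher and none lower, beside 23.1% and 25.5% of all genes. CD72, a B cell surface receptor, averaged 7.20 ± 0.17 in EED226 cells and 3.70 ± 0.11 in DMSO cells at day 6, and CD79B differed by 1.08. Of 8 proliferation genes, all 8 were lower at day 6, beside 25.5% of all genes, with a median of -1.59, and MCM6, a replication helicase subunit, was lower by 2.11 ± 0.09 log2 units. Summed on the linear scale, the B cell markers gave 15115 to 16398 units on the EED226 day 6 arrays, against 10185 to 12122 on the DMSO day 6 arrays. The T and NK cell markers gave 1176 to 1289 on the EED226 arrays, against 1550 to 1858 on the DMSO arrays. Most of that sum is CD3G, at 9.80 in EED226 cells and 10.13 in DMSO cells, and CD3D, at 8.09 and 9.04. Of the 8 T and NK cell markers, none was called higher and 2 were lower at day 6, near the 25.5% of all genes. The myeloid markers gave 86.2 to 99.4 on the EED226 arrays, against 65.2 to 71.7 on the DMSO arrays, but of the 6 myeloid markers only LYZ was higher, at 5.50 in EED226 cells and 3.22 in DMSO cells, and 2 were lower, with a list median of -0.25. A second LYZ probe set had the opposite sign. The part of these shifts in the members' differences was not tested.

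Across the 11 group means, the genes with the pattern most like NFKBIZ were TAPT1, ZNF627 and RNF19A, with Pearson r of 0.997, 0.995 and 0.995. For REL they were TMEM178A, NPIPA1 and DNAJB2, each with r of 0.995. Each r describes 11 group means, and these genes were picked for the highest r among all genes outside the members. For REL, the EED226 day 6 mean was 9.71, against 8.35 to 8.71 in the other groups, so that group weighs most in r.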

How the data were processed

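Per the labels' protocols, biotin labelling used a 3' IVT kit on TRIZOL-extracted total RNA. The authors deposited 1 log2 value per probe set and array, computed with RMA per the submitters' processing notes. No version of RMA is named there, nor which arrays were normalized jointly. The array medians ran from 4.06 to 4.18. The upper quartiles were less even. DMSO day 6 replicate 3 had the lowest, 6.10, against 6.47 or more on every other array, and the EED226 day 6 arrays had the highest, 6.68 to 6.74. With array weights, DMSO day 6 replicate 3 had a weight of 0.15. For arrays, their number limits the precision.

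Of 54675 probe sets, 62 controls were left out. In the platform annotation 41091 had 1 gene symbol, 1801 several and 11721 none. Each gene was counted by its brightest probe set over all arrays, and no coordinates were used except those of the RefSeq promoters.

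The tests used limma 3.58.1 under R 4.3.3 (lmFit and eBayes, two-sided), with 1 mean per group over 33 arrays, 22 residual degrees of freedom and Benjamini-Hochberg adjustment over 54613 probe sets. An adjusted p under 0.05 passed. The script was tested on simulated data. The members, the lists and the tests were chosen with earlier results of these data known. Beside all members, the rule names the 3 genes of each list with the smallest day 6 p, and 6 of the targets; other names were chosen after their values were seen.

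Same-numbered arrays deviated together at 8 h, day 1 and day 2 (correlations of 0.141 or more), which the numbers in the sample titles may mark. The correlations were 0.124, 0.0126 and 0.264 at day 3, and 0.158, 0.0683 and 0.165 at day 6. These times did not count as paired, because the rule asked every correlation of a comparison to pass a cut. All were positive, so some pairing at day 3 and day 6 may remain. Alternatives were array scaling, the samples in the fit, trended and robust eBayes, array weights, the ACTB covariate, a filter on dim probe sets, gene tables, the replicate block and leaving out each array. Leaving DMSO day 6 replicate 3 out of all fits was added after seeing the data.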

Additional observations from a re-analysis of the deposited data

Results flagged for a closer look

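8 members had a difference between EED226 and DMSO that was larger at day 6 than at day 3 by a test of that change itself (limma adjusted p under 0.05). The gain was 2.15 ± 0.25 log2 units for NFKBIZ, 1.31 ± 0.14 for NFKBIA, 1.15 ± 0.17 for REL and 1.04 ± 0.27 for TNFAIP3 (adjusted p = 0.00619). It was 0.69 ± 0.17 for NFKBIE (adjusted p = 0.00526), 0.67 ± 0.22 for RELB (adjusted p = 0.0361), 0.66 ± 0.23 for NFKB1 (adjusted p = 0.0442) and 0.41 ± 0.12 for RELA (adjusted p = 0.0189). The calls for NFKB1, RELB and RELA were lost in 14, 9 and 6 of their alternatives. For NFKB1 the gain was 0.40 without DMSO day 6 replicate 3 (adjusted p = 0.184) and 0.35 with array weights. The ACTB 3' minus 5' difference on the EED226 arrays also grew between the times, to 3.50 to 4.14 at day 6 against 3.26 to 3.74 at day 3. The GAPDH 3' minus 5' difference grew as well, to 0.52 to 0.74 at day 6 against 0.30 to 0.44 at day 3. With the ACTB difference as a covariate, all 8 gains still passed. The slope of that covariate came from the spread within groups only. The part of RNA quality in the gains was not tested.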

How the results depend on the processing

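At day 6, 8 members passed in every alternative run, including those that leave out 1 array, except that the filter on dim probe sets kept 8 members, of which 7 passed, and averaging probe sets gave 9, of which NFKB2 was lower. NFKBIZ, which that filter kept, averaged 4.52 over all arrays but lay at 3.23 to 4.36 on the DMSO and 0 h arrays. Its place above the filter may therefore rest on the EED226 arrays, and its pass there adds no support. The day 2 count was 1 and became 2 with quantile normalization again, with only the arrays compared, with trended and robust eBayes, array weights, the ACTB covariate, the filter on dim probe sets, both gene tables and the replicate block, and with DMSO day 6 replicate 3 left out of the fit. The gain from day 3 to day 6 held for 8 members in the main fit and for 4 with only the arrays compared. NFKB1 also lost it with array medians centred (limma adjusted p = 0.0543) and with array weights (limma adjusted p = 0.247). With quantile normalization again, both NFKB1 (limma adjusted p = 0.103) and RELA (limma adjusted p = 0.185) lost it. From day 1 to day 3 the count of 0 became 1 with array weights and with the ACTB covariate. Leaving out 1 array gave 0 to 0 at 8 h and day 1, 1 to 1 at day 2, 1 to 2 at day 3, 8 to 8 at day 6, 5 to 7 for day 6 minus day 3 (5 without DMSO day 3 replicate 1), and 0 to 0 for day 3 minus day 1 and for DMSO against 0 h. The replicate block changed 1 call of a member's probe set at day 2 and 2 at day 3, where REL 228812_at passed as higher and NFKBIA 201502_s_at as lower (adjusted p = 0.0461), and none elsewhere. Averaging all probe sets of a gene gave 0.44 for NFKBIA, 0.36 for RELA and 2.38 for NFKBIZ at day 6, and -0.23 for NFKB2 (adjusted p = 0.0268). With that average, TRAF3 at day 6 turned to -0.061 (adjusted p = 0.540) and TLR4 at day 3 to 0.34, where its brightest probe set gave -0.05. Of the 278 day 6 values of the members under an alternative, 270 kept their side of the threshold, of which 3 turned in sign without a call, in NFKB2 207535_s_at and RELA 209878_s_at. The dim signals of RELB, NFKBIZ and NFKB2 limit how well their folds are known.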
